A study of Homo sapiens with 6 samples.

Results

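The genes described here form the switch that starts mitosis: the kinase CDK1, its cyclins CCNA2, CCNB1 and CCNB2, the phosphatases CDC25A, CDC25B and CDC25C, the inhibitory kinases WEE1 and PKMYT1, and the kinase PLK1. These 10 genes were matched by symbol among the 26255 symbols measured, and all 10 passed the filter on low values described below. They were measured by RNA sequencing in HCT116, a human colon cancer cell line, as FPKM, fragment numbers scaled to exon length and to the size of the library. There were 3 groups of 2 libraries each: parent cells, cells with the small interfering RNA siLINC01534-1, and cells with siLINC01534-2, which are both directed at the long non-coding RNA LINC01534. The study asked how silencing of this RNA affects colon cancer cells, including their passage through G2-M. No source describes a transfection of the parent cells, so transfection itself and the loss of LINC01534 cannot be told apart in a comparison with them. None of the libraries is labelled as cells with a negative control siRNA. Whereas the methods speak of 3 cultures, the labels give 2 libraries per group, with no statement of which culture a library came from, so p-values may measure only technical spread between libraries.

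CDK1 drives cells from G2 into mitosis once it is bound to a cyclin, chiefly cyclin B. While a cell is still in G2, WEE1 in the nucleus and PKMYT1 at internal membranes hold the complex inactive by phosphorylating CDK1 in its ATP-binding site. The CDC25 phosphatases remove these phosphates, and active CDK1 in turn stimulates CDC25 and PLK1 and inhibits WEE1, so that the change is abrupt. Transcripts of many of these genes rise late in the cell cycle through promoter elements bound by DREAM, B-MYB and FOXM1 complexes, and p53 acting through p21 lowers them. RNA levels do not show the phosphorylation state that sets the activity of these proteins.

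The depth was estimated from the FPKM steps at 8680000 to 10400000 reads per library, and 16513 to 16903 genes per library had a value above 0. The reads behind a member ranged from 78 for CDC25C, where the counting error alone was 11.3%, to 3109 for CCNB1. A single small RNA locus, MIR6723, held 47.1% to 54.7% of the summed FPKM. LINC01534 itself lay near the limit of detection, at 0.285 and 0.571 FPKM in parent cells, 0 and 0.283 under siLINC01534-1 and 0.66 and 0.551 under siLINC01534-2. At this depth a lower level in the siLINC01534-2 libraries than in parent cells was not detectable, and group names here follow the labels. The study's own PCR measurements of LINC01534 were not analysed here. Of 8 colon epithelial markers 6 had a mean of at least 1 FPKM (VIL1 and CDX1 did not), while 1 of 6 fibroblast and 0 of 3 endothelial markers did, with DCN and LUM at 0. The summed epithelial markers were 3520 to 3590 FPKM in parent, 3030 to 3040 with siLINC01534-1 and 3430 to 3610 with siLINC01534-2; the fibroblast sum was 3.11 to 3.14, 5.36 to 6.08 and 3.85 to 4.33, and the endothelial sum was at most 0.11 in any library. CD68, a macrophage marker, was at 3.92 and 2.88 FPKM in parent cells, 3.41 and 3.77 under siLINC01534-1 and 6.18 and 6.1 under siLINC01534-2, a log2 fold change of 0.71 ± 0.13 for the latter (adjusted p = 0.017), while the leukocyte markers PTPRC and CD3E were at most 0.0242 and at 0 FPKM. The part of these differences in the results was not tested. In bulk RNA, a changed share of cells in a cell cycle phase and a changed amount of RNA per cell cannot be told apart. The study's own cell cycle measurements were not analysed here.

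The promoters of the switch are shown first because genes of this class share a compact arrangement, the cell cycle genes homology region (CHR) placed downstream of CCAAT boxes. Promoter windows of 300 bases, from 250 before to 50 after each annotated start, were held for 8 of the 10 genes, without WEE1 and PKMYT1. The sequences come from RefSeq, GRCh38.p14, and were placed by exact match on GRCh37, the assembly the study mapped to. The motifs searched on both strands were TTTGAA or TTCGAA for the CHR, CCAAT for the CCAAT box, and TTTGGCG or TTTCCCG or TTTGCCG or TTTCGCG for E2F sites. Each sequence below runs 5′ to 3′ on the strand of its gene, from 100 bases before to 20 bases into the transcript, and the capitals mark motif matches, none of which overlap. For genes with several annotated starts (2 for CDK1, 4 each for CDC25B and CDC25C), the start shown is the one with the most matches within this 120-base stretch. The stretches lie at chr10:62538136-62538255 (plus strand) for CDK1, chr4:122745019-122745138 (minus) for CCNA2, chr5:68462877-68462996 (plus) for CCNB1, chr15:59397245-59397364 (plus) for CCNB2, chr3:48229888-48230007 (minus) for CDC25A, chr20:3776857-3776976 (plus) for CDC25B, chr5:137667474-137667593 (minus) for CDC25C and chr16:23690110-23690229 (plus) for PLK1, all on GRCh37.
CDK1: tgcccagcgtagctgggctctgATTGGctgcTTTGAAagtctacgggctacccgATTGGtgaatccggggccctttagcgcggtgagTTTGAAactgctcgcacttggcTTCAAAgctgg
CCNA2: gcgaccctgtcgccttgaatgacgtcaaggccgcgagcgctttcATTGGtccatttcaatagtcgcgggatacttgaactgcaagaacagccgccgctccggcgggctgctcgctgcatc
CCNB1: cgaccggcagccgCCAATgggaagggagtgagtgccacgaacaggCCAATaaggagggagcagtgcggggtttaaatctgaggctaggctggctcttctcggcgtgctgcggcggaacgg
CCNB2: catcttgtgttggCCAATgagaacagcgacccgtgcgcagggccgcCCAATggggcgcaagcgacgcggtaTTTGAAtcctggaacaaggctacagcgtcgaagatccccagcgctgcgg
CDC25A: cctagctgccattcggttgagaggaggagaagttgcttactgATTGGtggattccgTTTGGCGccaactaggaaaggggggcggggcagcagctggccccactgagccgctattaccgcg
CDC25B: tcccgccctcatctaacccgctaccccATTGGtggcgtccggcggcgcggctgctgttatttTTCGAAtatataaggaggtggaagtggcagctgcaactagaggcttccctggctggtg
CDC25C: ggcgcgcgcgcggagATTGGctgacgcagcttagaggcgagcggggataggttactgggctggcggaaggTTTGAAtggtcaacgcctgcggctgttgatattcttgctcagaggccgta
PLK1: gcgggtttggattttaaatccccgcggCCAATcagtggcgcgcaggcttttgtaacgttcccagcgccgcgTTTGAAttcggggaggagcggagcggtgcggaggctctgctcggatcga

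A CCAAT box was found in the windows of 8 of the 8 genes, beside 43.2% of the 9009 tested genes with a promoter in the table. A CHR match was found in 5 of 8, namely CDK1, CCNB2, CDC25B, CDC25C and PLK1, beside 14.8% of the tested genes. The same 5 genes had both motifs in 1 window, an arrangement held by 6.3% of the tested genes. In CCNB2, CDC25C and PLK1 a CHR began at positions -29, -30 and -29 relative to the start, and in CDC25B at -38. E2F letters were found in 3 of 8 (CDK1, CDC25A and CDC25B), beside 16.9%. The windows of CCNA2 and CCNB1 held no match to TTTGAA or TTCGAA, the only CHR letters searched. Similar letters stand in lower case in their printed stretches, cttgaa in CCNA2 and tttaaa in CCNB1. The stretch of PLK1 also holds tttaaa. These other letters were not searched, and whether they serve as a CHR was not tested. The count of 5 of 8 therefore depends on the letters chosen, and a lack of the element in either cyclin cannot be read from it. A match is a description of letters, and binding was not measured.

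**Figure D1:**
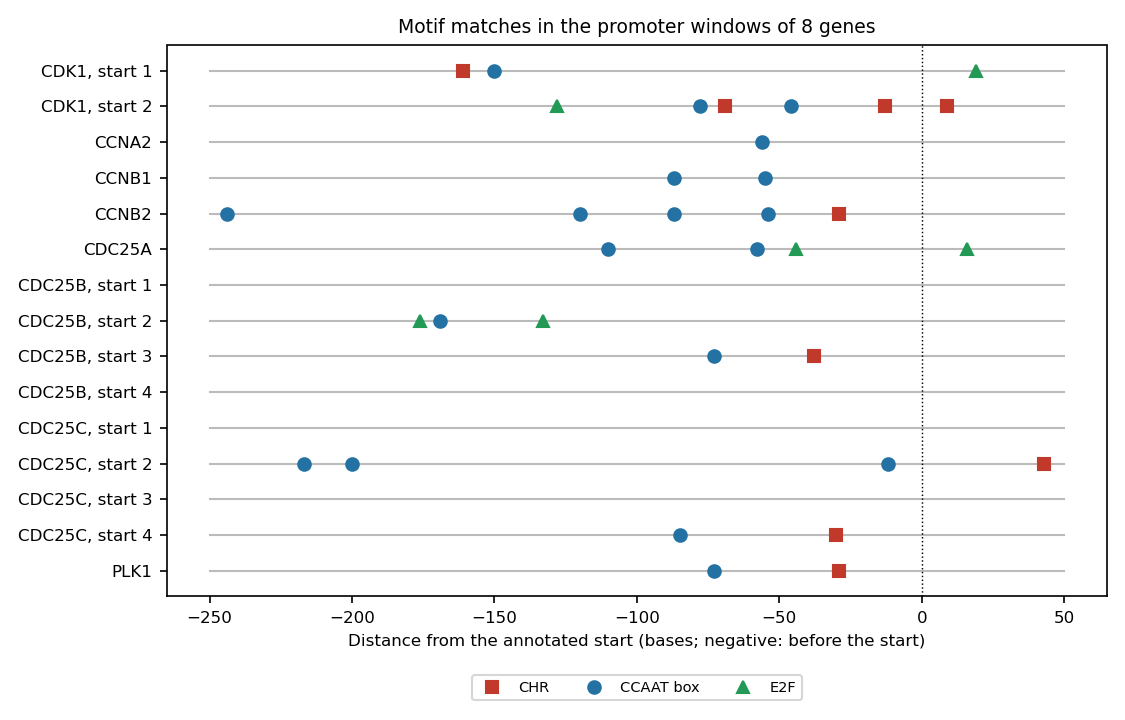
Positions of motif matches in the 300-base promoter windows of the 8 genes held in the promoter table, 1 row per annotated start; the horizontal axis is the distance in bases from the start, and squares, circles and triangles are the starts of CHR, CCAAT box and E2F matches. CCAAT boxes appear in at least 1 window of every gene, and CHR matches lie between -38 and -29 in 1 window each of CCNB2, CDC25B, CDC25C and PLK1.

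Most of the switch was lower in the siRNA-treated cells. For both siRNAs averaged against parent, 8 of the 10 genes were lower and 0 higher at an adjusted p under 0.05 (limma on log2(FPKM + 1), Benjamini-Hochberg over 12203 genes), while CDC25A and WEE1 did not pass. The background was high, since 20.1% of all genes tested were called lower and 17.1% higher in this comparison. The median log2 fold change of the 10 genes was -0.47, beside -0.0068 over all genes tested. In 8 of the 10 genes all 4 siLINC01534 libraries lay below both parent libraries, which 19.3% of all genes tested did. Treating the 4 siRNA libraries as 1 group, whose spread then includes the difference between the siRNAs, left 0 of the 10 past the threshold, with limma adjusted p from 0.071 to 0.99 and 5 of 10 at an unadjusted p under 0.05. The decrease was unequal between the siRNAs, and the values are therefore given for each.

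**Figure D2:**
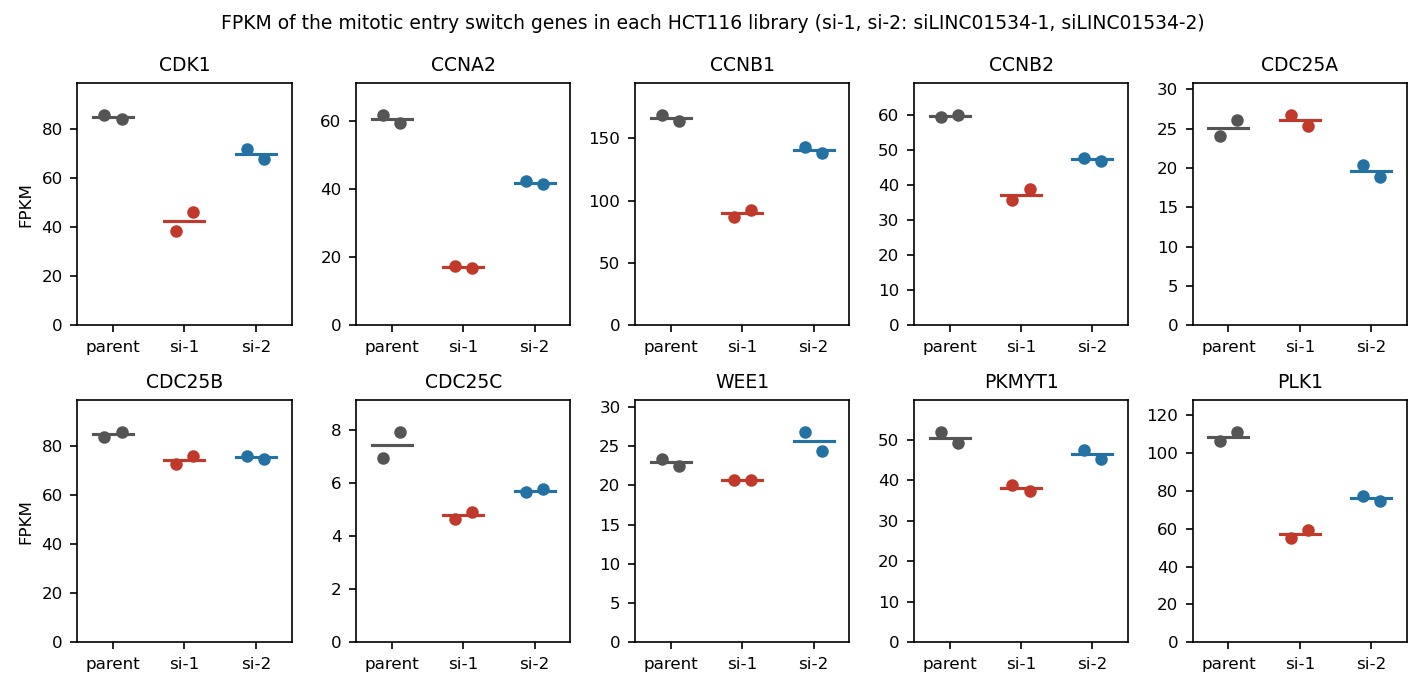
FPKM of the 10 genes (vertical axes, each starting at 0) in parent, siLINC01534-1 (si-1) and siLINC01534-2 (si-2) libraries; points are libraries and lines are the means of 2. CDK1, CCNA2, CCNB1, CCNB2, CDC25C, PKMYT1 and PLK1 step down from parent to siLINC01534-2 to siLINC01534-1 without overlap, whereas CDC25A is lowest with siLINC01534-2 and WEE1 is highest there. The share of all genes tested with this ordered step was not counted. It cannot exceed the 19.3% with all 4 siLINC01534 libraries below both parent libraries.

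CDK1, the kinase of the switch (chr10:62538089-62554610 on GRCh37, plus strand), was measured at 86.0 and 84.0 FPKM in parent cells, 38.4 and 46.4 under siLINC01534-1 and 71.8 and 67.7 under siLINC01534-2. Its libraries did not overlap between any of the 3 groups. With siLINC01534-1 the mean was 49.9% of parent, a log2 fold change of -0.99 ± 0.09 (SE, adjusted p = 0.00073). With siLINC01534-2 the mean was 82.1% of parent and the change of -0.28 ± 0.09 did not pass (adjusted p = 0.078, 95% interval -0.51 to -0.057), although it did, at adjusted p = 0.032, when either siLINC01534-1 library was left out of the shared estimate of spread. The difference between the siRNAs was itself past the threshold, at -0.71 ± 0.09 (adjusted p = 0.0027).

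CCNA2, cyclin A2 (chr4:122737599-122745038, minus strand), pairs with CDK2 in S phase and with CDK1 in G2, and it had the largest change of the 10 genes with siLINC01534-1. Its level was 62.0 and 59.6 FPKM in parent cells, 17.3 and 16.9 under siLINC01534-1 and 42.4 and 41.5 under siLINC01534-2. The groups were far apart against a spread of at most 1.74 FPKM (SD, n = 2) within any of them. The log2 fold change was -1.77 ± 0.04 with siLINC01534-1 (28.1% of parent, adjusted p = 2.2e-05) and -0.52 ± 0.04 with siLINC01534-2 (69.0% of parent, adjusted p = 0.0018). The siRNAs differed by -1.25 ± 0.04 (adjusted p = 7.3e-05), the widest gap among the 10 genes.

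CCNB1, cyclin B1 (chr5:68462962-68474072, plus strand), is the main mitotic partner of CDK1 and was the most abundant of the 10 transcripts in every group. It was measured at 169 and 164 FPKM in parent cells, 87.1 and 92.8 under siLINC01534-1 and 143 and 138 under siLINC01534-2. The 3 groups did not overlap. Its log2 fold change was -0.88 ± 0.044 with siLINC01534-1 (adjusted p = 0.00013) and -0.24 ± 0.044 with siLINC01534-2 (adjusted p = 0.018), and the siRNAs differed by -0.64 ± 0.044 (adjusted p = 0.00041). CCNB2, cyclin B2 (chr15:59397325-59417244, plus strand), resides mainly at the Golgi and was at 59.3 and 60.1 FPKM in parent cells, 35.7 and 38.8 under siLINC01534-1 and 47.7 and 46.9 under siLINC01534-2. It followed the same order with a smaller step between the siRNAs. Its log2 fold change was -0.67 ± 0.048 (adjusted p = 0.00035) and -0.33 ± 0.048 (adjusted p = 0.0095), and the siRNAs differed by -0.34 ± 0.048 (adjusted p = 0.004).

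Relative to the kinase, cyclin B1 was higher in every siRNA library than in the parent libraries, whereas cyclin A2 was lower. The ratio of CCNB1 to CDK1 in FPKM was 1.96 and 1.95 in parent cells, 2.27 and 2.0 under siLINC01534-1 and 2.0 and 2.04 under siLINC01534-2. The ratio of CCNA2 to CDK1 was 0.721 and 0.71 in parent cells, 0.45 and 0.364 under siLINC01534-1 and 0.59 and 0.613 under siLINC01534-2. These pairs were chosen after the values were seen and carry no test.

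The phosphatases that activate CDK1 did not move as a block. CDC25A (chr3:48198636-48229907, minus strand), which also acts on CDK2 at the start of S phase, was at 24.1 and 26.1 FPKM in parent cells, 26.8 and 25.4 under siLINC01534-1 and 20.4 and 18.8 under siLINC01534-2. It was the member that was lower with siLINC01534-2 and not with siLINC01534-1: the log2 fold change was -0.34 ± 0.064 (adjusted p = 0.019) with the former and 0.0532 ± 0.064 (adjusted p = 0.53, 95% interval -0.11 to 0.21) with the latter. The siLINC01534-2 call of CDC25A held in 9 of 14 alternatives and was lost with no filter (limma adjusted p = 0.1). Over the alternatives that change ran from -0.40 to -0.28. The difference between the siRNAs, 0.39 ± 0.064 (adjusted p = 0.0063), had the opposite sign to that of the cyclins.

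CDC25B (chr20:3767419-3786768, plus strand), regarded as the starter phosphatase at the centrosome, was at 83.7 and 85.7 FPKM in parent cells, 72.7 and 75.8 under siLINC01534-1 and 75.8 and 74.8 under siLINC01534-2. Both siRNA groups lay below parent and overlapped each other. The change was small, -0.19 ± 0.037 with siLINC01534-1 (adjusted p = 0.01) and -0.17 ± 0.037 with siLINC01534-2 (adjusted p = 0.03), and the difference between the siRNAs was -0.0203, with a 95% interval of -0.11 to 0.072 and adjusted p = 0.69. The siLINC01534-1 call was lost without parent replicate 2 (adjusted p = 0.054) and under quantile normalisation (adjusted p = 0.088), and the call for both siRNAs averaged was lost without parent replicate 2 (adjusted p = 0.068). The siLINC01534-2 call held in 6 of 14 alternatives. It was lost with the replicate number as a block (adjusted p = 0.058), under quantile normalisation (0.068), without the trended prior (0.067), with no filter (0.074), and without either parent library or either siLINC01534-2 library (0.088 to 0.12). CDC25C (chr5:137620958-137674044, minus strand), which joins the feedback loop with CDK1 and PLK1, was the least abundant member at 6.94 and 7.93 FPKM in parent cells, 4.65 and 4.93 under siLINC01534-1 and 5.67 and 5.76 under siLINC01534-2. The groups did not overlap. Its log2 fold change was -0.54 ± 0.079 (adjusted p = 0.0036) and -0.33 ± 0.079 (adjusted p = 0.038), and the difference of -0.22 between the siRNAs did not pass (95% interval -0.41 to -0.018, adjusted p = 0.077). The siLINC01534-2 call of CDC25C was lost on leaving out any 1 of the 6 libraries, with adjusted p from 0.059 to 0.14.

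The inhibitory kinases had smaller fold changes than CDK1 with each siRNA, a difference between genes that was not tested. WEE1 (chr11:9595217-9615004, plus strand), the nuclear kinase, was at 23.4 and 22.5 FPKM in parent cells, 20.7 and 20.7 under siLINC01534-1 and 26.8 and 24.4 under siLINC01534-2. Its libraries lay below parent with the former siRNA and above parent with the latter, and neither difference passed (log2 fold changes of -0.14 ± 0.056, adjusted p = 0.089, and 0.15 ± 0.056, adjusted p = 0.11). The siRNAs differed from each other by -0.29 ± 0.056 (adjusted p = 0.011), a call lost without siLINC01534-1 replicate 1 (adjusted p = 0.059) or replicate 2 (adjusted p = 0.06) and with no filter on low values (adjusted p = 0.054). PKMYT1 (chr16:3018025-3030480, minus strand), the membrane-bound kinase, was at 52.0 and 49.2 FPKM in parent cells, 38.8 and 37.5 under siLINC01534-1 and 47.5 and 45.4 under siLINC01534-2. Its log2 fold change with siLINC01534-1 was -0.40 ± 0.047 (adjusted p = 0.0017), its change of -0.12 ± 0.047 with siLINC01534-2 did not pass (adjusted p = 0.12), and the siRNAs differed by -0.28 ± 0.047 (adjusted p = 0.007).

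Relative to CDK1, the transcripts of both inhibitors were therefore more abundant in every siRNA library than in the parent libraries. The ratio of WEE1 to CDK1 was 0.272 and 0.268 in parent cells, 0.539 and 0.447 under siLINC01534-1 and 0.374 and 0.361 under siLINC01534-2. The ratio of PKMYT1 to CDK1 was 0.605 and 0.586 in parent cells, 1.01 and 0.809 under siLINC01534-1 and 0.661 and 0.671 under siLINC01534-2. These ratios too were chosen after their values were seen, and they describe RNA and not kinase activity. With siLINC01534-1 the log2 fold change of CDK1 was -0.99, beside a 10th percentile of -0.49 over all genes tested. With siLINC01534-2 both values were -0.28. Most genes tested therefore rose relative to CDK1, and the higher ratios are not particular to the inhibitors.

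PLK1 (chr16:23688977-23701688, plus strand), the kinase that marks WEE1 for destruction and activates CDC25C, was at 106 and 111 FPKM in parent cells, 55.3 and 59.5 under siLINC01534-1 and 77.0 and 74.8 under siLINC01534-2. The 3 groups did not overlap. Its log2 fold change was -0.91 ± 0.049 with siLINC01534-1 (52.9% of parent, adjusted p = 0.00015) and -0.51 ± 0.049 with siLINC01534-2 (69.9% of parent, adjusted p = 0.0031). The siRNAs differed by -0.40 ± 0.049 (adjusted p = 0.0025). Beside CCNA2, PLK1 was the other member whose siLINC01534-2 change passed the test under every limma alternative run.

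**Figure D3:**
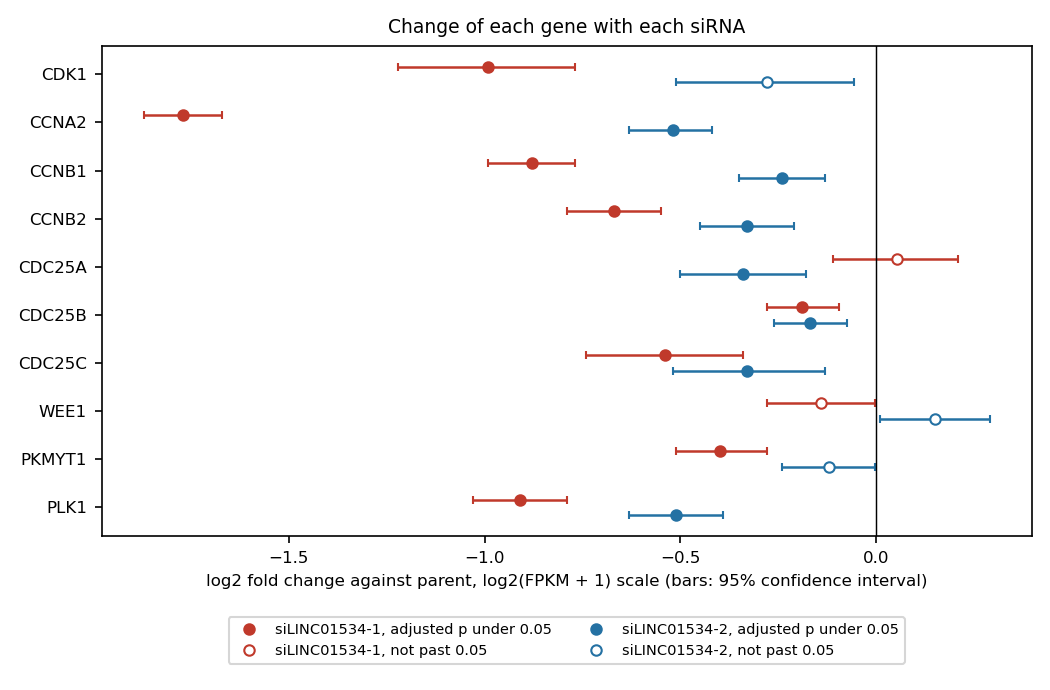
Log2 fold change of each gene against parent on the log2(FPKM + 1) scale (horizontal axis) for siLINC01534-1 (red) and siLINC01534-2 (blue), with 95% confidence intervals from limma; filled points passed an adjusted p of 0.05. The red points of CDK1, CCNA2, CCNB1 and PLK1 lie at -0.99, -1.77, -0.88 and -0.91, each left of the blue point, while CDC25A shows the reverse order and the points of CDC25B nearly coincide.

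By count, siLINC01534-1 against parent gave 8 of 10 genes lower and 0 higher, where 24.5% of all genes tested were lower and 21.8% higher. The median of the 10 genes was -0.60, beside 0.00031 over all genes. With siLINC01534-2 it was 7 lower and 0 higher, where 11.8% were lower and 11.1% higher, with medians of -0.30 and 0.0018. The siLINC01534-2 count fell when either parent library or either siLINC01534-2 library was left out, which leaves a group of 1 library. The number of all genes called lower with siLINC01534-2 fell in the same fits, so the fall is not particular to these genes. CCNA2, CCNB1, CCNB2, CDC25B, CDC25C and PLK1, 6 genes, were lower with each siRNA. The share of all genes tested that were lower with each was not counted, and it cannot exceed the 11.8% lower with siLINC01534-2. The comparisons with parent share their parent libraries, so these counts are not independent.

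The siRNAs compared directly, both in transfected cells, gave 7 of 10 genes lower with siLINC01534-1 than with siLINC01534-2 (CDK1, the 3 cyclins, WEE1, PKMYT1 and PLK1) and 1 higher (CDC25A). Over all genes tested 22.3% were lower and 19.5% higher in this comparison. The median difference of the 10 genes was -0.32, beside 0.00024 over all genes.

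The order of the levels, which FPKM sets per length, also shifted. In parent cells it ran CCNB1, PLK1, CDK1, CDC25B, CCNA2, CCNB2, PKMYT1, CDC25A, WEE1 and CDC25C, and the library ranges of the neighbours CDK1 and CDC25B (84.0 to 86.0 and 83.7 to 85.7 FPKM) and of CCNA2 and CCNB2 overlapped. With siLINC01534-1, CDC25B moved to the second place and CCNA2 from the fifth to the ninth, below CDC25A and WEE1, and the ranges of CDK1, PKMYT1 and CCNB2 overlapped in turn. With siLINC01534-2 the ranges of PLK1 and CDC25B overlapped, as did those of CCNB2 and PKMYT1, and CDC25A came below WEE1. CCNB1 was first and CDC25C last in all 3 groups.

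The genes whose pattern over the 6 libraries was closest to that of CDK1 were PCDH7, HMGB3, HJURP, TOP2A and CDCA2, with root mean square differences of 0.065, 0.067, 0.071, 0.076 and 0.08 in centred log2(FPKM + 1), out of 9096 genes with a mean of at least 5 FPKM. TOP2A, the topoisomerase that untangles sister chromatids, was at 50.8 and 49.4 FPKM in parent cells, 25.5 and 26.8 under siLINC01534-1 and 40.8 and 38.8 under siLINC01534-2. HJURP, the chaperone that loads the centromeric histone, was at 28.7 and 27.7, 12.4 and 13.3, and 24.4 and 23.0 FPKM in the same order. Within the switch, CCNB1 was the closest to CDK1 at 0.07 and CDC25A the farthest at 0.52. The 5 nearest genes were not stable, since between 0 and 4 of them stayed in the list when 1 library was left out.

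Letters of the siRNA seeds were also searched in the longest annotated 3′ UTR of each gene, because a short match to bases 2 to 8 of the antisense strand can lower a transcript apart from the intended target. The 7-base match to siLINC01534-1, GAATAAA, was found in 1 of the 10 genes, CCNA2, with 3 matches, beside 27.4% of 10586 tested genes with a 3′ UTR. This motif contains the letters of the common polyadenylation signal. The matches, in capitals, lie at chr4:122738086-122738092, chr4:122738056-122738062 and chr4:122737916-122737922 on GRCh37, minus strand, and are shown because CCNA2 had the widest gap between the siRNAs.
CCNA2, first match: aatggatttgtGAATAAAaaatacccagg
CCNA2, second match: ttctcagaatgGAATAAAtatccctttta
CCNA2, last match: ctgtgttctgtGAATAAAgcaaagtaaga

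The match to siLINC01534-2, TTCGAGT, was found in 1 of the 10 genes, CDK1, at chr10:62554489-62554495 on the plus strand, beside 2.7% of the tested genes.
CDK1: ttatcttggctTTCGAGTctgagtttaaa

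CDK1 has a match to siLINC01534-2 only, and its log2 fold changes were -0.99 with siLINC01534-1 and -0.28 with siLINC01534-2. Among tested genes other than the 10, the 2895 with a siLINC01534-1 match had a median log2 fold change of -0.13 with that siRNA and 0.011 with siLINC01534-2, and the 7681 without had 0.03 and 0.0035. The 199 with at least 3 matches had -0.17 and 0.017. The 280 genes with a siLINC01534-2 match had a median of -0.012 with that siRNA, and the 10296 without had 0.0056. These medians take no account of 3′ UTR length. The part of seed matches in the values of CCNA2 or CDK1 was not tested. Promoter letters were read in the same way: 561 tested genes with a CHR and a CCAAT box in 1 window had a median of -0.062 for the mean of both siRNAs, and 8440 without that pair had -0.0055.

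The surrounding pathway was described with 6 lists of 80 genes, of which RPRM and CCND2 were too low to test. All counts here are for both siRNAs averaged against parent. Those from all libraries can be read against the 20.1% lower and 17.1% higher given above. Counts without 1 library cannot, since fewer of all genes tested were called lower and higher in each such fit. With the 4 siRNA libraries as 1 group, the calls of TFDP1, FOXM1, GADD45A and SFN remained among the genes named below, at adjusted p of 0.0026, 0.025, 0.012 and 0.0028, and those of the others named below did not.

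The Aurora A and Greatwall branch activates PLK1 and restrains the phosphatase that opposes CDK1, and its list also holds subunits of that phosphatase. This list had 8 of 11 genes lower and 1 higher, with a median of -0.33, so the lower count does not stand for activators of mitotic entry alone. TPX2, the activator of Aurora A, was at 98.2 and 99.8 FPKM in parent cells, 46.6 and 49.1 under siLINC01534-1 and 68.3 and 66.7 under siLINC01534-2, and its change was -0.79 ± 0.034 (adjusted p = 0.00017). AURKA, Aurora A itself, changed by -0.49 ± 0.053 (adjusted p = 0.002), and BORA, its cofactor in activating PLK1, by -0.42 ± 0.065 (adjusted p = 0.0062). For BORA the change was -0.72 ± 0.075 with siLINC01534-1 (adjusted p = 0.0012), and the -0.12 ± 0.075 with siLINC01534-2 did not pass (adjusted p = 0.3). The count of lower genes was 4 without parent replicate 1 and 5 without parent replicate 2, and the BORA call was lost without parent replicate 1 (adjusted p = 0.051). The CDK partners, which assemble or activate CDK complexes, were split, with 2 of 5 lower and 2 higher and a median of 0.062. CKS2, a small subunit that binds CDK1, was lower, with a change of -0.33 ± 0.026 (adjusted p = 0.00079), while CDK7 and CCNH of the CDK-activating kinase were higher by 0.43 ± 0.062 (adjusted p = 0.0049) and 0.28 ± 0.058 (adjusted p = 0.015). The CCNH value rested on siLINC01534-1, with 0.57 ± 0.067 there (adjusted p = 0.0018) and -0.00011 ± 0.067 with siLINC01534-2 (adjusted p = 1.0). Of these partner counts, the lower count was 1 without any 1 of the 6 libraries, and the CCNH call was lost without either parent library or siLINC01534-1 replicate 1 (adjusted p = 0.07, 0.1 and 0.051).

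The regulators of G2-M transcription had 7 of 15 genes lower and 1 higher, with a median of -0.22, and of the named genes MYBL2 differed most between the siRNAs. MYBL2, which encodes B-MYB, was at 65.1 and 68.8 FPKM in parent and 12.2 and 12.7 with siLINC01534-1, but at 68.6 and 66.5 with siLINC01534-2. Its log2 fold change was -2.34 ± 0.046 with siLINC01534-1 (adjusted p = 2e-05) and 0.013 ± 0.046 with siLINC01534-2 (adjusted p = 0.86), and the difference of -2.35 passed (adjusted p = 2.2e-05). TFDP1, the dimerisation partner of E2F factors, was lower with each siRNA, at 135 and 134 FPKM in parent cells, 73.2 and 72.9 under siLINC01534-1 and 67.2 and 65.7 under siLINC01534-2. FOXM1, an activator of late cell cycle genes, was also lower with each, with changes of -0.63 ± 0.06 (adjusted p = 0.00086) and -0.52 ± 0.06 (adjusted p = 0.005), and the difference of -0.11 ± 0.06 did not pass (adjusted p = 0.2).

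The G2 checkpoint list went the other way in its leading genes, with 5 of 11 tested genes higher, 3 lower and a median of 0.16. GADD45A, a stress-induced inhibitor of the CDK1 complex, was at 32.1 and 32.5 FPKM in parent cells, 81.8 and 86.5 under siLINC01534-1 and 64.3 and 71.1 under siLINC01534-2, a change of 1.2 ± 0.051 for the mean of both (adjusted p = 0.00016). SFN, the 14-3-3 sigma protein that keeps CDK1 complexes in the cytoplasm, was at 214 and 228 FPKM in parent cells, 353 and 349 under siLINC01534-1 and 363 and 362 under siLINC01534-2. CDKN1A, which encodes p21, was at 132 and 135 FPKM in parent cells, 259 and 256 under siLINC01534-1 and 169 and 178 under siLINC01534-2. The siRNA libraries of all 3 genes lay above both parent libraries, and the share of all genes tested that did so was not counted. BTG2, an antiproliferative p53 target, was higher by 0.72 ± 0.038 (adjusted p = 0.0003). GADD45A, SFN and BTG2 were named for the largest changes of the list in these same data, so their separation from parent is not further evidence. The lower count of this list was 1 without either parent library or either siLINC01534-1 library.

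The cyclin destruction list, of the anaphase-promoting complex and SCF ligases, had 10 of 23 genes lower and 1 higher, with a median of -0.11; the lower count was 6 without parent replicate 2. CCNF, the F-box protein cyclin F, changed by -0.54 ± 0.045 (adjusted p = 0.00088), UBE2S, an E2 enzyme of that complex, by -0.48 ± 0.06 (adjusted p = 0.0033), and CDC26, a small subunit of it, by -0.59 ± 0.074 (adjusted p = 0.0033). CDC26 was at 47.4 and 51.3 FPKM in parent cells, 20.2 and 20.6 under siLINC01534-1 and 56.1 and 47.5 under siLINC01534-2, so that its mean change rested on siLINC01534-1. The UBE2S change with siLINC01534-2, -0.19 ± 0.07, did not pass (adjusted p = 0.11). Among the G1 and S cyclins and CDKs, 5 of 13 tested genes were lower and 3 higher, with a median of -0.20; without parent replicate 2 these were 3 and 1, and without parent replicate 1 the higher count was 1. CCNE2, cyclin E2, was lower, with a change of -0.71 ± 0.068 (adjusted p = 0.0014), as was CDK6, a G1 kinase, with -0.56 ± 0.042 (adjusted p = 0.0007), while the inhibitor CDKN2B was higher by 0.54 ± 0.094 (adjusted p = 0.0089) at a level of at most 2.43 FPKM. The single higher calls in the Aurora A and Greatwall branch, the transcription list and the destruction list did not hold in every fit without 1 library. Fewer of all genes tested were also called higher in those fits.

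**Figure D4:**
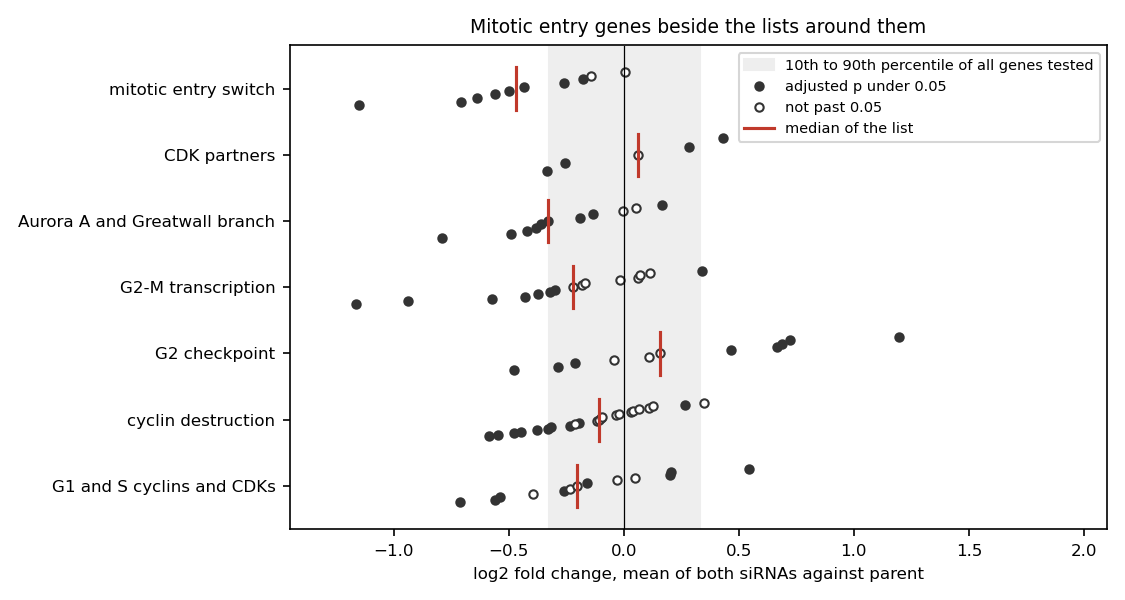
Log2 fold change for both siRNAs averaged against parent (horizontal axis) of each tested gene in the switch and in the 6 lists around it; filled points passed an adjusted p of 0.05, red lines are list medians and the grey band spans the 10th to 90th percentile of all genes tested (-0.33 to 0.33). The switch has the lowest median at -0.47, and the G2 checkpoint list has a median of 0.16 with GADD45A farthest right at 1.2.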

How the data were processed

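Total RNA of 6 HCT116 samples was sequenced as 75-base single-end reads from stranded mRNA libraries. The authors mapped reads to hg19 with TopHat2 2.0.13, Bowtie2 2.2.3 and SAMtools 0.1.19 and deposited FPKM values from Cuffnorm (Cufflinks 2.2.1), 1 table per sample. FPKM are scaled to total fragments, so abundant transcripts influence every value. No counts were used, and read numbers were estimated from FPKM steps and transcript lengths of GENCODE v44lift37; they cover counting error only.

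Groups came from the labels. The 12203 of 26255 genes whose mean FPKM reached 1 were fitted as log2(FPKM + 1) with limma 3.58.1 in R 4.3.3, with a trended prior and all 6 libraries sharing 1 estimate of spread; fold changes on this scale understate changes of low genes. Contrasts were the mean of both siRNAs, each siRNA against parent, and 1 siRNA against the other, with Benjamini-Hochberg adjustment per contrast, two-sided, threshold 0.05. Exact permutation tests cannot go below p = 0.133 for 4 against 2 libraries or 0.333 for 2 against 2. On simulated data (siLINC01534-1 against parent, 12203 genes, 200 changed by 1 on the log2 scale), the fit called 179 of the 200 and 8 of the others. The simulation had independent errors and few changed genes. Its rates therefore need not hold for smaller changes or for libraries that are technical replicates.

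The members, lists, rules and motifs were chosen with earlier results of these data known. Named genes were all 10 members, the 3 genes of each list with the largest absolute change for the mean of both siRNAs, and CDKN1A and FOXM1 in any case. Alternatives were the pseudocount (0.1, 5), the filter (none, 5 FPKM), scaling, the replicate block, no trended prior, the siRNA libraries as 1 group, a 2-fold ratio of means, and leaving out each library. The labels and methods differ on the number of cultures (2 against 3); the labels were followed. A marker gene of another cell type is not reported here.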

Additional observations from a re-analysis of the deposited data

Results flagged for a closer look

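The difference between the siRNAs, given as the log2 value of siLINC01534-1 minus siLINC01534-2, was past an adjusted p of 0.05 in limma for 8 of the 10 genes of the switch. It was -1.25 for CCNA2, -0.71 for CDK1, -0.64 for CCNB1, -0.40 for PLK1, -0.34 for CCNB2, -0.29 for WEE1, -0.28 for PKMYT1 and 0.39 for CDC25A, with adjusted p from 7.3e-05 (CCNA2) to 0.011 (WEE1). Of the genes named from the lists, 15 also differed. Those lower with siLINC01534-1 were MYBL2 at -2.35, CDC26 at -1.3, CCNF at -0.64, BORA at -0.60, UBE2S at -0.58, AURKA at -0.52, TPX2 at -0.49, CCNE2 at -0.46, CDK6 at -0.28 and CKS2 at -0.21. Those higher with siLINC01534-1 were BTG2 at 0.59, CCNH at 0.57, CDKN1A at 0.57, GADD45A at 0.31 and TFDP1 at 0.14. The named genes CDK7, FOXM1, SFN and CDKN2B did not pass. Over all genes tested 22.3% were lower and 19.5% higher in this comparison. Most of the named genes were picked for large changes against parent in these same data, so their count is not comparable with these shares. The TFDP1 difference lost its call without siLINC01534-1 replicate 1, siLINC01534-1 replicate 2 or siLINC01534-2 replicate 2 (adjusted p = 0.07, 0.065 and 0.073), and the GADD45A difference without siLINC01534-1 replicate 2 (adjusted p = 0.065). Both siRNA groups were transfected, and which of them reflects loss of LINC01534 more closely was not tested.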

How the results depend on the processing

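Of 570 values of the 10 genes under the alternatives, 519 kept direction and call, 44 lost the call, 2 gained it and 5 changed sign; of 1079 values of the other named genes these were 1008, 63, 1 and 7. For the mean of both siRNAs, the count of lower genes went from 8 to 0 with the siLINC01534 libraries as 1 group and to 1 by a 2-fold ratio of means; all genes called went from 2458 lower and 2083 higher to 100 and 261 in the former and to 1501 and 1245 with no filter. By a 2-fold ratio the counts were 2 for siLINC01534-1, 0 for siLINC01534-2, and 1 lower and 0 higher between the siRNAs. With no filter the siLINC01534-2 count was 2, while all genes called lower with siLINC01534-2 went from 1437 to 650. That count also fell without 1 parent or siLINC01534-2 library, as did the number of all genes called lower. Replicate numbers did not pair the samples (correlations of deviations 0.114, 0.027 and -0.0456), and with the replicate block the counts were 8, 8, 6, and 7 lower and 1 higher. Signs changed for CDC25B between the siRNAs (0.03 under quantile normalisation, -0.051 to 0.0099 without 1 library), SFN between the siRNAs (0.025 under quantile normalisation) and CCNH with siLINC01534-2 (0.00012 with a pseudocount of 5, -0.077 to 0.077 without 1 library). Without 1 library they also changed for CDC25A with siLINC01534-1 (-0.0021 to 0.11), WEE1 for the mean of both (-0.028 to 0.037), MYBL2 with siLINC01534-2 (-0.026 to 0.052) and CDC26 with siLINC01534-2 (-0.054 to 0.18), none of them past the threshold in the full fit. The cause was not tested, except that the 1-group spread includes the difference between siRNAs and that no filter tests more genes. At an estimated 78 to 151 reads per library, CDC25C was the least precisely measured.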
